A study of Mus musculus with 6 samples.

Results

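The 10 genes of 4 growth factor systems were followed in unloaded mouse muscle. They were the ligands Fgf2, Hgf, Pdgfa, Pdgfb and Egf and the receptors Fgfr1, Fgfr4, Pdgfra, Pdgfrb and Egfr. These genes were picked by gene symbol, with earlier results of these data known. Each had 1 probe, so they made up 10 of the 203 named genes and 10 of the 223 probes of a small focused array. The study hybridised RNA of soleus, a slow muscle of the lower hindlimb that works against gravity, from C57Bl/6 mice labelled wt whose hindlimbs had been suspended, so that the muscle bore no weight. All 6 arrays, numbered 1 to 6, carried RNA of suspended mice, with 3 micrograms of total RNA prepared from cryosections for each. No loaded muscle was analysed here, so the values are levels in suspended soleus and say nothing of a change with suspension. Age, sex and length of suspension are not spelled out in the labels. They also do not say that each array was a separate animal, so the spread between arrays, and every p-value below, may be partly technical.

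Fibroblast growth factors (FGFs), platelet-derived growth factors (PDGFs), epidermal growth factor (EGF) and hepatocyte growth factor (HGF) are secreted or membrane-shed proteins that bind receptor tyrosine kinases at the cell surface. Binding brings receptor chains together, and the phosphorylated chains start the Ras-MAP kinase and PI3-kinase cascades that drive proliferation, migration and survival. In skeletal muscle HGF and Fgf2 are known as activators of the muscle stem cells that lie along the fibres. Pdgfra marks fibro-adipogenic cells of the interstitium, and Pdgfrb marks pericytes of the small vessels, which are drawn to endothelium by Pdgfb.

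The deposited values are linear intensities from which background had been subtracted, given to 0.0001 in arbitrary units. A value at or below 0 was read as not detected. Across the arrays 171 of 223 probes were above 0 on all 6. The sum of intensities was between 15.3 and 18.5 on replicates 2 to 6 and was 37.5 on replicate 1. Replicate 1 also stood apart in its log2 profile, with correlations of 0.86 to 0.91 with the other arrays against 0.957 to 0.977 among them, so results that rest on it are given with and without it. Fibre markers had the strongest signal, with 8 of 8 probed above 0 on all arrays, among them Myh7, the slow myosin heavy chain, at a mean intensity of 0.928 ± 0.597 (SD, n = 6). Of the other cell types, 5 of 5 endothelial, 3 of 4 muscle stem cell and myoblast, 2 of 2 fat cell and 1 of 3 immune markers were above 0 on all arrays. Des (mural cells, and also fibres) and Fn1 (fibroblasts) were the only markers probed for their cell types, and no nerve marker was probed. Fn1 had 2 probes, and the stronger, above 0 on all 6 arrays, was used. The other Fn1 probe was above 0 on 1 of 6 arrays.

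Among these 10 genes receptors gave signal on all arrays more often than ligands did. Of the 5 receptors 4 were above 0 on all 6 arrays, namely Fgfr1, Pdgfra, Pdgfrb and Egfr, and of the 5 ligands 2 were, Pdgfb and Egf. Together 6 of 10 members met this mark, where 76.7% of all probes on the array did. The count of 4 of 5 receptors lay near that share. The difference between ligands and receptors is a count of 5 genes against 5 and was not tested, since genes are not replicates. In such tissue RNA a low signal from few cells of a type cannot be told apart from little RNA per cell.

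The FGF ligand on the array was at background while a receptor for it was not. Fgf2, which binds heparan sulphate and the FGF receptors, had deposited intensities from -0.0004 to 0.0007 with a median of 0.0001, and was above 0 on 3 of 6 arrays. Fgfr1, a main FGF receptor of mesenchymal cells and myoblasts, ran from 0.0060 on replicate 6 through a median of 0.0104 to 0.0142 on replicate 1. Its lowest array was thus above the highest array of Fgf2. Fgfr4, a receptor linked to muscle stem cells and regenerating muscle, gave between -0.0002 and 0.0005 with a median of 0.00025, above 0 on 5 of 6 arrays. The Fgfr4 values overlapped those of Fgf2, and on 0 of 6 arrays did either exceed the noise floor, taken as the size of the most negative value on that array.

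The other FGF receptors on the array split in the same manner. Fgfr2, the receptor with an epithelial isoform for Fgf7 and Fgf10, was above 0 on all arrays, with a lowest value of 0.0130, a median of 0.0184 and a highest of 0.0473 on replicate 1. Fgfr3, best known from cartilage, lay between -0.0006 and 0.0006 and was above 0 on 2 of 6 arrays. Of the FGF receptor probes, therefore, Fgfr1 and Fgfr2 gave signal on every array and Fgfr3 and Fgfr4 did not.

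**Figure D1:**
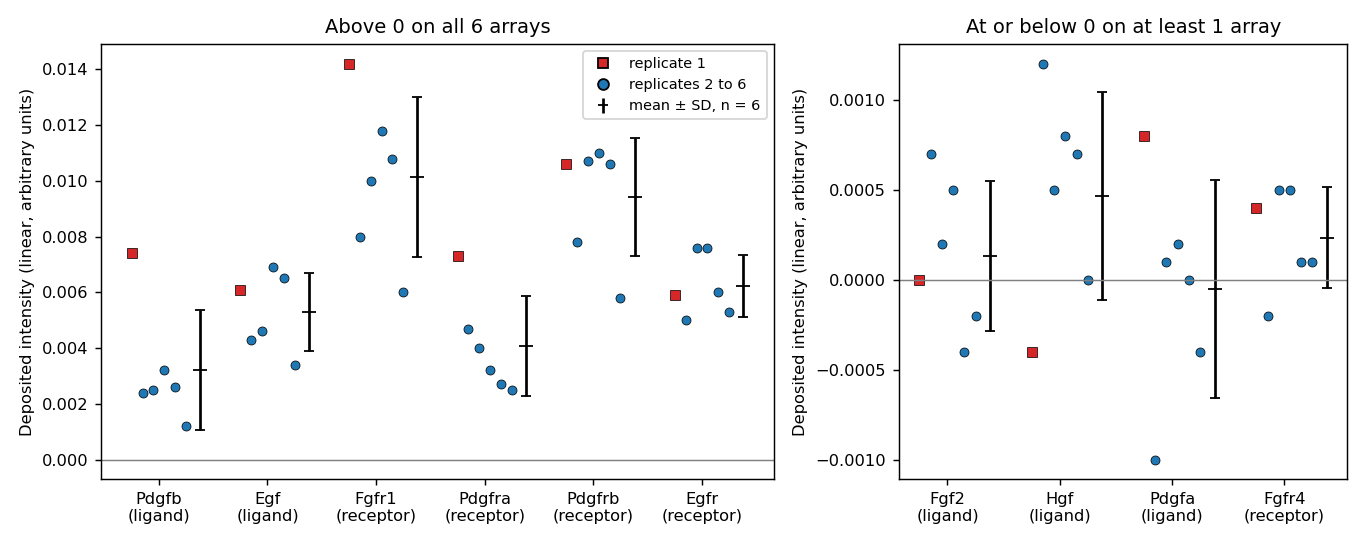
Deposited intensity (linear, arbitrary units) of each member on the 6 arrays, with replicate 1 as squares, replicates 2 to 6 as circles, and bars for the mean ± SD (n = 6). The 6 members on the left are above 0 on every array; the 4 on the right, drawn on a finer axis, scatter around 0 between -0.0010 and 0.0012.

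Both PDGF receptors and the B chain gave signal, and the A chain did not. PDGFs are dimers of A and B chains, and the alpha receptor binds both chains whereas the beta receptor binds the B chain. Pdgfa ranged from -0.0010 on replicate 2 to 0.0008 on replicate 1 with a median of 0.00005, and was above 0 on 3 of 6 arrays. Pdgfra, its receptor, was at 0.0025 to 0.0073 with a median of 0.0036, so the values of ligand and receptor did not overlap. Pdgfb was lowest on replicate 6 (0.0012), had a median of 0.00255 and was highest on replicate 1 (0.0074). The next highest Pdgfb value was 0.0032 on replicate 4.

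Pdgfrb was stronger than Pdgfb on each array. Its intensity ran from 0.0058 on replicate 6 through a median of 0.0106 to 0.0110 on replicate 4, and 4 of the 6 arrays lay between 0.0106 and 0.0110. The receptor minus ligand difference averaged 0.0062 ± 0.0021 (SD, n = 6) and was between 0.0032 and 0.0082, above 0 on 6 of 6 arrays. The ranges overlapped through replicate 1 of Pdgfb alone. On the log2 scale this difference in signal was 1.73 ± 0.63 (SD, n = 6), with 0.52 on replicate 1, and 1.98 ± 0.23 (n = 5) without that array. Pdgfra exceeded Pdgfb on 4 of 6 arrays, equalled it on replicate 4 and was 0.0001 below it on replicate 1, so their signals did not separate.

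Ligand and receptor of the EGF system were both above 0 on all arrays and close in signal. Egf, made as a membrane-bound precursor, had a lowest value of 0.0034 on replicate 6, a median of 0.00535 and a highest of 0.0069 on replicate 4. Egfr, whose ligands also include TGF-alpha and HB-EGF, ran from 0.0050 on replicate 2 through 0.00595 to 0.0076 on replicates 3 and 4. The 2 ranges overlapped. Egfr was the higher on 4 of 6 arrays, and the difference of 0.000933 ± 0.00132 (SD, n = 6) was smaller than its spread. These probes differ in sequence and labelling, so neither the pairs above nor this pair measures a ratio of transcripts.

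Hgf, the ligand of the receptor Met, was not detected on all arrays. It ranged from -0.0004 on replicate 1 through a median of 0.0006 to 0.0012 on replicate 2, was above 0 on 4 of 6 arrays and exceeded the noise floor on 1. Its receptor is not a member, and Met was not among the named probes. The urokinase system, which can cleave HGF precursor into its active form, did give signal. Plau, the urokinase, had a median of 0.00335 (range 0.0024 to 0.0063), and Plaur, its receptor, a median of 0.0019 (0.0012 to 0.0048), both above the noise floor on 6 of 6 arrays. Plat, the tissue plasminogen activator, was above 0 on all arrays with a median of 0.0006 and above the noise floor on 2.

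**Figure D2:**
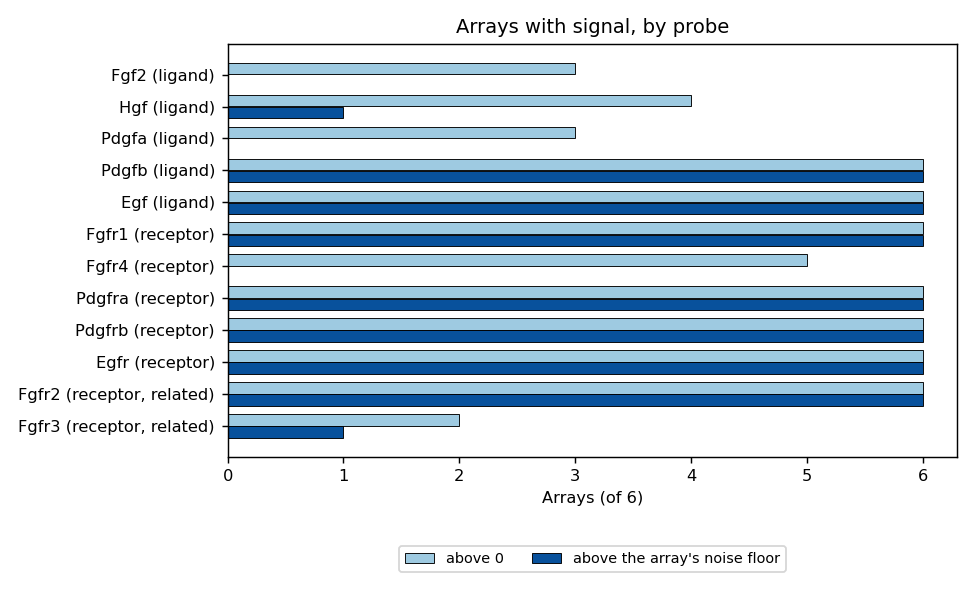
Number of arrays, of 6, on which each probe was above 0 (light bars) and above the noise floor of its array, the size of the most negative value there (dark bars), for the 10 members and for Fgfr2 and Fgfr3. Pdgfb, Egf, Fgfr1, Pdgfra, Pdgfrb, Egfr and Fgfr2 reach 6 arrays in both; Fgf2, Pdgfa and Fgfr4 reach 0 above the noise floor, and Hgf and Fgfr3 reach 1.

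The mean of each probe was tested against 0 with an exact two-sided sign-flip permutation test over the 6 arrays, run on all 223 probes with Benjamini-Hochberg adjustment. Its smallest possible p is 0.031, reached only where all arrays lie on the same side of 0, so the calls above 0 are by construction the same probes as the detection count. The 6 detected members were called (adjusted p = 0.039, exact, for each), as were 76.7% of all probes. The adjusted p was 0.14 for Hgf, 0.18 for Fgfr4, 0.53 for Fgf2 and 0.89 for Pdgfa by the same exact test. A p above the threshold does not show that such a transcript was lacking, only that its signal did not exceed the scatter around 0. A further 7 probes were below 0 on all 6 arrays (3.14% of the 223), with means from -0.000917 to -0.0004, so probes without signal need not centre on exactly 0.

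The stricter noise floor kept the same split among the members. Above it on all arrays were the 2 ligands and 4 receptors named above, 6 of 10 members, where 60.1% of all probes passed. At 2 noise floors, passed by 49.8% of all probes, the 4 receptors and Egf remained. Pdgfb then passed on 4 of 6 arrays.

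Levels were compared between arrays on a log2 scale after subtracting from each array its median over the 171 probes above 0 on all arrays. On this scale 0 is the middle of the detected probes and 1 unit is a factor of 2. Fgfr1 had a level of 0.20 ± 0.18 and Pdgfrb of 0.11 ± 0.23 (SD, n = 6 each), both near the middle of the detected probes. Egfr followed at -0.47 ± 0.28, Egf at -0.73 ± 0.25, Pdgfra at -1.17 ± 0.44 and Pdgfb at -1.62 ± 0.58. Among neighbours in this order of signals, the step from Pdgfrb to Egfr, 0.58 ± 0.26, was the only step to have the same sign on 6 of 6 arrays. The steps from Fgfr1 to Pdgfrb (0.09 ± 0.18), from Egfr to Egf (0.26 ± 0.35), from Egf to Pdgfra (0.44 ± 0.63) and from Pdgfra to Pdgfb (0.46 ± 0.50) were smaller than their own SD between arrays. Without replicate 1 the step from Fgfr1 to Pdgfrb was 0.02 ± 0.07 and that from Pdgfra to Pdgfb 0.55 ± 0.50 (n = 5), the latter then slightly above its SD. The order is that of probe signals and not of transcript amounts.

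**Figure D3:**
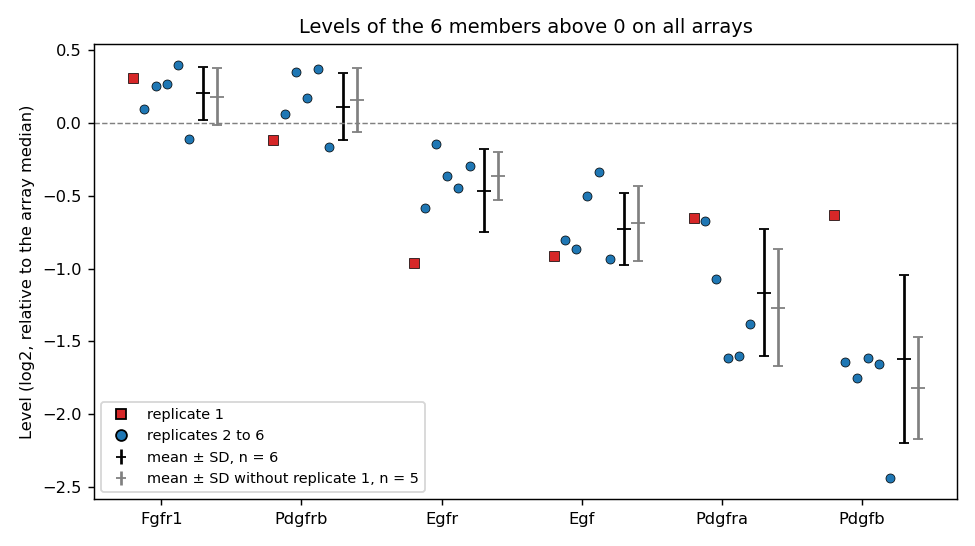
Level (log2, with the median of each array's detected probes at 0) of the 6 members above 0 on all arrays, 1 point per array, with black bars for the mean ± SD of 6 arrays and grey bars for the 5 arrays without replicate 1. Fgfr1 and Pdgfrb lie around 0; replicate 1 is the highest array of Pdgfb and the lowest of Egfr.

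With median centring, Fgfr1, Pdgfrb, Egf and Egfr each varied less between arrays than most detected probes did. The median SD of the 6 detected members was 0.27, and that of all 171 detected probes was 0.48. Without replicate 1 the values were 0.24 and 0.34. An SD smaller than that of Fgfr1 was found in 6.43% of the detected probes, and the corresponding share was 11.1% for Pdgfrb, 14.0% for Egf and 21.6% for Egfr. Without replicate 1 these shares were 19.9%, 25.1%, 32.7% and 9.94%. The share was 43.9% for Pdgfra and 62.6% for Pdgfb, near the middle of the detected probes. Without replicate 1 it was 61.4% for Pdgfra and 51.5% for Pdgfb. These shares are descriptions of 6 genes picked by name. The SDs also depend on the scaling: the median SD of the members was 0.42 without centring and 0.45 with arrays scaled to equal totals. The median SD of all detected probes is not given for those scalings. The comparison with them therefore holds for median centring only.

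Single arrays set part of this spread. For Pdgfb the SD of 0.58 was 0.35 without replicate 1, where the level was -0.64, and the other arrays lay between -2.44 and -1.61. For Egfr the SD of 0.28 became 0.17 without replicate 1, whose level of -0.96 was the lowest, against -0.58 to -0.14 on the others. For Fgfr1 the SD of 0.18 became 0.11 without replicate 6, which at -0.12 was the only array below 0. Pdgfra was high on replicates 1 and 2 (-0.66 and -0.67) and low on replicates 4 and 5 (-1.61 and -1.60), so its spread came from no single array.

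On replicate 1 the members went different ways. Relative to the mean of the other arrays, Pdgfb was 1.18 and Pdgfra 0.61 higher there on the log2 scale with median centring, and Fgfr1 differed by 0.13. The differences of Egf, Pdgfrb and Egfr were -0.23, -0.27 and -0.59. Over all 171 detected probes the median of such differences was 0.13 with median centring, 0.65 without centring, -0.45 with equal totals and 0.06 with quantile normalization. Counted from that median, Pdgfb was 1.06 and Pdgfra 0.49 higher, Fgfr1 lay at the median, and Egf, Pdgfrb and Egfr stood at -0.35, -0.40 and -0.72. The first 3 of these scalings move whole arrays and leave those relative values as they are; with quantile normalization they were 1.27, 0.71, 0.08, -0.25, -0.33 and -0.58 in the same order of genes. Before that subtraction the sign of the difference was not the same in all 4 scalings for Egf, Fgfr1 and Pdgfrb. Marker intensities were summed as deposited, without scaling between arrays. The total over all probes was 37.5 on replicate 1 and 15.3 to 18.5 on the others, and the marker values are not corrected for it. The summed intensity of the 8 fibre markers was 11.4 on replicate 1 and as low as 4.26 on another array. That of the 5 endothelial markers was 0.0711 on replicate 1 within a range of 0.0698 to 0.0871. The fibroblast marker Fn1, by the stronger of its 2 probes, was highest on replicate 1 (0.0292, range from 0.0083). The sum of the 2 fat cell markers Fabp4 and Pparg was also highest there (0.0903, range from 0.0281). The sum of the 3 immune markers Csf2rb2, Il1b and Il6 was lowest there (0.0038, range to 0.0359), with Il1b and Il6 above 0 on 2 arrays each. Of the 4 stem cell and myoblast markers the sum was 0.0106 within a range of 0.0078 to 0.0107. The part of cell content or of array quality in the differences of replicate 1 was not tested.

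**Figure D4:**
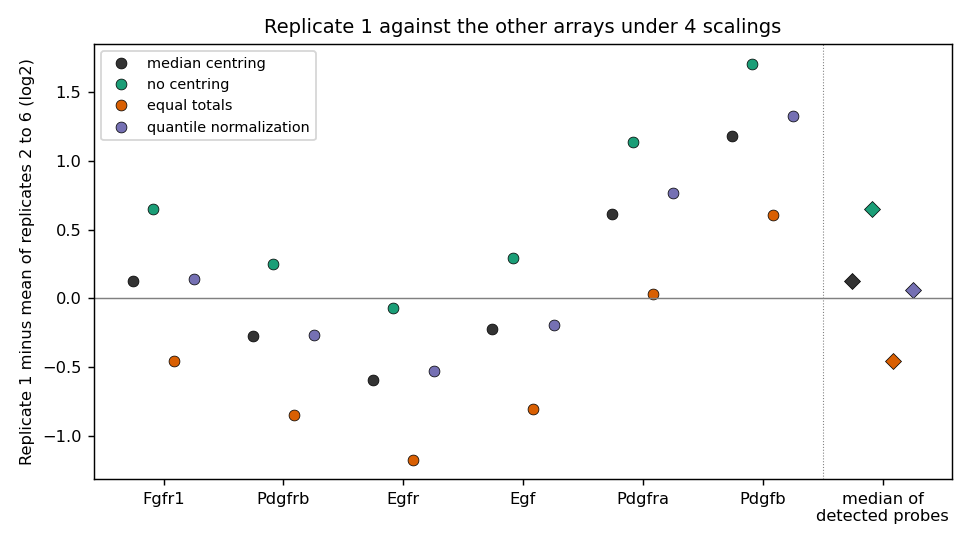
Difference of replicate 1 from the mean of replicates 2 to 6 (log2) for the 6 detected members under 4 scalings (circles), with the median difference over the 171 detected probes at the right (diamonds). Pdgfb lies highest and Egfr lowest under each scaling, while Fgfr1, Pdgfrb and Egf change side of 0 with the scaling.

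Whether a ligand varied with its receptor from array to array was examined in the 15 pairs among the 6 detected members, a set chosen after their values were seen. For Pdgfb and Pdgfrb Pearson's r was -0.06 (exact permutation p = 0.96, adjusted over 15 pairs 0.98) and Spearman's rho -0.03 (exact p = 1, adjusted 1). It was -0.60 without replicates 1 and 6, the arrays farthest from the median of Pdgfb, and 0.75 without replicate 1 alone, so it takes either sign with the arrays kept. It was 0.72 without centring, 0.03 with equal totals and -0.16 with quantile normalization. For Pdgfb and Pdgfra r was 0.53 (exact p = 0.32, adjusted 0.55) and rho 0.26 (exact p = 0.66, adjusted 0.86), with r = -0.30 without replicates 1 and 6 and 0.11 without replicate 1. Under the same 3 scalings it was 0.81, 0.12 and 0.60. For Egf and Egfr r was 0.14 (exact p = 0.79, adjusted 0.98) and rho -0.14 (exact p = 0.80, adjusted 0.86), with r = 0.03 without replicates 4 and 5 and -0.37 without replicate 1. The scalings gave 0.51, 0.76 and 0.06. No pair passed the threshold of 0.05 in either measure, adjusted or not, and 0 of 15 had an unadjusted exact p below it. The value farthest from 0 under median centring was that of Pdgfb with Egfr (r = -0.82, exact p = 0.074, adjusted 0.46; rho = -0.77, exact p = 0.10, adjusted 0.70), which was -0.75 without replicates 1 and 6 and -0.35 without replicate 1. Its sign turned without centring (0.24), and it was -0.40 with equal totals and -0.80 with quantile normalization.

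For each detected member the most similar named probes over the 6 arrays were then sought among 159 others, as a description without a test, since the best of many probes over 6 arrays correlates highly in any case. Pdgfra was nearest to Acadm, the medium-chain acyl-CoA dehydrogenase (r = 0.987), and Mmp2, the gelatinase A (r = 0.986). Without replicate 1 the values were 0.995 and 0.980, and under the 3 other scalings both stayed between 0.928 and 0.994. Pdgfb was nearest to Igf2r, the mannose 6-phosphate receptor (r = 0.97, and 0.90 without replicate 1, with a Spearman correlation of 0.49), and Igfbp4, an insulin-like growth factor binding protein (0.95 and 0.84). Egf was nearest to Top3a, a topoisomerase (0.95 and 0.95), and Agt, the angiotensin precursor (0.85 and 0.83, with a Spearman correlation of 0.60). Agt was above the noise floor on 4 of 6 arrays.

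The other receptors were treated likewise. Fgfr1 was nearest to Csk, a kinase that restrains Src (r = 0.83), and Mef2c, a muscle transcription factor (0.78). These values were 0.66 and 0.44 under quantile normalization, 0.61 and 0.95 with equal totals, and 0.95 and 0.96 without centring. Csk was above the noise floor on 4 of 6 arrays. Pdgfrb was nearest to Igfbp5 (0.79) and the laminin chain Lamb2 (0.78), with 0.88 and 0.76 without replicate 1. Egfr was nearest to Scarb2, a lysosomal membrane protein (0.90), and the cell cycle regulator Rb1 (0.90), which became 0.56 and 0.54 without replicate 1. The arrays share their scaling and replicate 1, so these values say nothing on shared control of the genes.

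The array held few other genes of these pathways. Of 89 further genes listed for these pathways 11 were probed, counting Fgfr2, Fgfr3, Plau, Plaur, Plat and Cd44. Of them 8 of 11 were above 0 on all arrays and called above 0, against the 76.7% of all probes given above. Above the noise floor on all arrays were 5 of 11, where 60.1% of all probes passed. No adaptor, Ras, Raf or MAP kinase gene of that list was among those named on the array. Of the nuclear targets, Jun, part of the AP-1 factor, had a median intensity of 0.043 (range 0.0344 to 0.0874) and Srf, the serum response factor, of 0.0274 (0.0120 to 0.0528). The AP-1 genes Junb and Fosl1 were above 0 on 3 and 4 of 6 arrays. Fosl2 and Jund, AP-1 genes outside the list and added after their values were seen, were above 0 and above the noise floor on 6 of 6, at mean intensities of 0.0129 ± 0.00128 and 0.00788 ± 0.00822 (SD, n = 6). Ccnd1, the cyclin of G1 phase, had a median of 0.0015, above 0 on 6 arrays and above the noise floor on 3. Cd44, a hyaluronan receptor whose variant forms can present growth factors, had a median of 0.0010 and was above the noise floor on 3 arrays as well.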

How the data were processed

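The data were 6 arrays of suspended soleus, with 1 table of linear intensities as deposited by the authors. Background had been subtracted, as the values below 0 show; scanner, background method, scaling reference, array maker and probe sequences are not given in the sources used for this work. No depth exists for such data, and the number of arrays limits the precision. Probes were named through GEO's platform annotation, and 10 of 10 members matched the RefSeq gene table of GRCm38.p6. The table names no build, so no coordinates are given.

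Values were analysed in Python 3.11.15 with NumPy 2.4.6. Every member was described on the deposited scale. The log2 levels, with no pseudocount, used the 171 probes above 0 on all arrays, centred on each array's median. The sign-flip test used all 64 sign patterns. It was also run on simulated data whose noise was centred on 0 and of the same size on all arrays. The real arrays differ in both respects, so no conclusion on its error rate here is drawn from that run. All members were named, with probed pathway genes and the 2 nearest probes of each detected member. The members and lists were chosen with earlier results of these data known.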

Additional observations from a re-analysis of the deposited data

Results flagged for a closer look

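The deposited intensity of Pdgfb was set apart by its highest array, replicate 1 at 0.0074, whose gap to the next array made up 0.677 of the whole range of the 6 arrays, above Dixon's critical value. It was the only such case among 16 sets of member values examined, and chance gives about 1 in 20. On the centred log2 scale the ratio for Pdgfb was 0.543, below the critical value. Without replicate 1 the mean intensity of Pdgfb was 0.00238 ± 0.000729 (SD, n = 5), against 0.00322 ± 0.00215 with it (n = 6).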

How the results depend on the processing

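The count of members above 0 on all arrays was 6, and 6 above the noise floor, 5 above 2 noise floors and 8 with detection on at least 4 of 6 arrays. For receptors it was 4, and 4, 4 and 5 in these settings. Without replicate 2 the counts were 7 members and 5 receptors, and they stayed at 6 and 4 without any other array. All are within 1.5 times of 6 and 4. The count of ligands fell from 2 to 1 at 2 noise floors and was 3 with detection on at least 4 of 6 arrays. The sign-flip count was 6 with equal totals, which was fixed in advance because dividing an array by its total changes no sign. It was also 6 one-sided, where the same 6 members must pass and only further members could be added. With 5 arrays the two-sided test cannot pass its threshold (smallest p = 0.063, exact), so it was not run without replicate 1. The count of arrays with Fgfr4 above Fgf2 was 4, and 0 when the higher value had to exceed the noise floor. The counts of the other 5 pairs stayed the same under that condition. Leaving out 1 array lowers a count by at most 1, so counts of 6 and 4 could not move by 1.5 times there. Those settings therefore show nothing on the stability of the pair counts. The median SD of 0.27 was 0.42 without centring and 0.45 with equal totals. The difference of replicate 1 changed sign for Egf (0.30) and Pdgfrb (0.25) without centring and for Fgfr1 (-0.45) with equal totals, settings that shift whole arrays. The centring constant depends on which probes are kept, so the levels of all 6 members moved by more than 1 SD with a pseudocount of 0.001 on all probes and with only probes above the noise floor, and by less with quantile normalization. Without centring and with equal totals the mean level is kept by construction. No paired analysis was possible because all arrays belong to 1 group. Values of Fgf2, Hgf, Pdgfa and Fgfr4 are of the size of the scatter around 0 and set no level.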

Other observations

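Ligands and receptors of other receptor tyrosine kinase systems were also probed. Of 11 listed ligand genes 9 were above 0 on all arrays, and of 6 listed receptors 5 were, near the 76.7% of all probes. With Angpt4 (above 0 on 4 of 6 arrays) and Ephb3 (on 0), which were not on the lists and were added after their values were seen, the counts were 9 of 12 and 5 of 7. Above the noise floor on all arrays were 7 of the 11 and 3 of the 6, where 60.1% of all probes passed. The ligands Igf2 and Igf1, growth factors of muscle, had median intensities of 0.0583 and 0.0248 (the stronger of 2 Igf1 probes), and the lymphatic vessel factor Vegfd had 0.0188. Angpt1 and Pgf were each above 0 on 5 of 6 arrays. Among the receptors the vascular endothelial growth factor receptors Kdr and Flt1 had medians of 0.0072 and 0.0105, and Igf1r was above 0 on 5 of 6 arrays at a median of 0.0003. The difference between these systems and the FGF, PDGF, EGF and HGF genes was not tested.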
